A study of Mus musculus with 10 samples.

Results

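Genes that encode AP-1 subunits and early growth response factors were followed through sorted lung monocytes and neutrophils of tumour-bearing mice. The 10 genes, out of 29893 genes with a matched transcript, were chosen by name: Fos, Fosb and Fosl2 of the FOS family, Jun, Junb and Jund of the JUN family, Atf3, Egr1, Ier2 and Zfp36, most of them transcription factors. All 10 had enough counts to be tested. The series holds 10 RNA-seq libraries from lungs of NOD/scid mice, whose lymphocytes are defective, taken when the tumours had reached end point. The 4 groups were CCR2+ monocytes with tumour HCl-002 (TN2, low metastatic; tag_367, tag_706 and tag_1341), CCR2+ monocytes with HCl-001 (TN1, highly metastatic; tag_191 and tag_482), neutrophils with TN2 (tag_367, tag_706 and tag_1341) and neutrophils with TN1 (tag_191 and tag_482). Cells were sorted by flow cytometry and their RNA was amplified by Smart-seq2, a full-length method for small RNA amounts. The groups include no mice without a tumour. The labels do not say that tags are separate animals, so p-values measure the spread between these samples, which may be technical.

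AP-1 is a dimer of basic leucine zipper proteins: FOS proteins need a JUN partner to bind DNA, while JUN proteins also pair with each other and with ATF proteins. Fos, Fosb, Jun, Junb, Atf3, Egr1, Ier2 and Zfp36 are immediate early genes, whose transcription rises within minutes of growth factor, cytokine or stress signals through MAP kinases, without new protein synthesis. In myeloid cells AP-1 takes part in the induction of inflammatory genes and in differentiation, EGR1 is linked to monocyte and macrophage differentiation, and ZFP36 (tristetraprolin) shortens the life of cytokine mRNAs. Handling of tissue is itself known to induce many of these genes.

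Short stretches of promoter are shown for 4 members to let the letters ahead of abundant or variable members be compared. They are the 150 bases before the RefSeq start (GRCm38.p6), 5′ to 3′ on the gene's strand. RefSeq promoter windows matched 8 of the 10 members, and Egr1 and Ier2 are named only. Capitals mark TGACG (the core of a CRE, a site of CREB and ATF proteins) and TATAAA in Fos, TGACG in Junb, TGACATCA (a site known from Jun, bound by JUN and ATF dimers) in Jun, and the CArG box (bound by SRF) in Zfp36.
Fos, chr12:85473740-85473889, plus strand: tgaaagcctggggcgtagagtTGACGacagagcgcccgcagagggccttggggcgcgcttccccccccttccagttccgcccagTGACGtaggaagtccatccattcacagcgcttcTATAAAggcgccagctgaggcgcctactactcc
Junb, chr8:84978749-84978898, minus strand: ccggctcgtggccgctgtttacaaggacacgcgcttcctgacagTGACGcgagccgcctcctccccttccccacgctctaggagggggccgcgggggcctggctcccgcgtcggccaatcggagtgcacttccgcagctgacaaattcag
Jun, chr4:95052223-95052372, minus strand: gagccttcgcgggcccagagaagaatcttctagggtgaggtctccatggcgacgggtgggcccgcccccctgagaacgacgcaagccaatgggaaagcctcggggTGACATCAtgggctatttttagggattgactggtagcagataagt
Zfp36, chr7:28379229-28379378, minus strand: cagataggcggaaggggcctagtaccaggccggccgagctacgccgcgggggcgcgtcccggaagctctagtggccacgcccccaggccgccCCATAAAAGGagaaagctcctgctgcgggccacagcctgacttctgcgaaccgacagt

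The motifs were searched on both strands in windows of 250 bases before to 50 after the start, for the 8 members and for all 32851 windows. TGACG was found in 4 of the 8 member windows (Fos, Fosb, Junb and Atf3) and in 20.8% of all windows. In Fos it lay at -129 to -125 and again at -66 to -62, ahead of TATAAA at -33 to -28. The CArG box was found in Zfp36 alone among the 8, at -58 to -49, and in 1.63% of all windows. It shares 1 base with a match to GGGCGG, a motif bound by SP1, at -63 to -58. TGACATCA was found in Jun alone among the 8, at -45 to -38, and in 3.62% of all windows. TATAAA lay in 2 windows (Fos and, after its start, Junb) against 13.6% of all, and GGGCGG in 6 against 35.7% of all. The full sites TGACGTCA (1.79% of all windows) and TGANTCA (7.81%) were in none of the 8. The Jund window, which held none of the motifs, ends at 70697788, ahead of the annotated start of the gene at 70698949. Every TGACGTCA match also holds TGACG. Each match is a description of these letters, and the absence of one says only that the letters are not in the window.

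Depth was lower in the TN1 monocytes than in any other library. Total estimated counts ran from 7239218 to 10170794 in monocyte libraries and from 8788542 to 11311370 in neutrophil libraries. In monocytes they were 7239218 and 7293156 with TN1, against 9756124 to 10170794 with TN2. Genes with at least 5 counts were fewest in TN1 tag_482 of both cell types (9732 in monocytes and 8851 in neutrophils). The markers of each sorted cell type went with the labels: summed neutrophil markers (15 genes) were 1708 to 4105 CPM (counts scaled to library size, not to length) in monocytes and 56335 to 83464 CPM in neutrophils, and summed monocyte markers (15 genes) were 29126.5 to 70361 CPM in monocytes and 3959 to 12142 CPM in neutrophils. The highest monocyte marker sum among the neutrophils was in TN2 tag_1341. Mitochondrially encoded transcripts were 4.82 to 19.9% of TPM in monocytes and 0.283 to 3.002% in neutrophils, highest in tag_482 of both cell types. The monocyte library TN2 tag_706 stood apart: it had 15211 genes with at least 5 counts, against 9732 to 12905 in the other 4 monocyte libraries. Results that rest on it are given with and without it. Counts were not stated to use strand, so reads of a member and of an overlapping gene on the other strand cannot be told apart where annotations overlap. The antisense gene Junos held at most 13.4 counts in any library, and Prdx2, which overlaps the 3′ end of Junb, held 972 to 1671 counts in monocytes and 54 to 131 in neutrophils.

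In both cell types Fos had the highest median level of the 10 genes and Jund the lowest. By median TPM, a level scaled for transcript length, the order in monocytes was Fos (1199), Zfp36 (703), Junb (675), Atf3 (217), Ier2 (57.8), Jun (50.2), Fosl2 (41.8), Fosb (34.4), Egr1 (31.7) and Jund (5.201). In neutrophils it was Fos (1772), Junb (1522), Zfp36 (452), Atf3 (287), Egr1 (143), Ier2 (103), Fosl2 (95.9), Fosb (59.0), Jun (24.5) and Jund (6.80). Junb was above Fos in neutrophil TN2 tag_367 (1882 against 1880.0 TPM) and TN2 tag_1341 (1994 against 1974 TPM). In monocytes the ranges of every pair of neighbours in this order overlapped, and in neutrophils every pair but Junb and Zfp36, and Jun and Jund. Within each monocyte library Fos was still above Zfp36, Junb above Atf3 and Egr1 above Jund. Within each neutrophil library Fosl2 was also above Fosb, and Fosb above Jun. In monocytes Zfp36 and Junb averaged 660 ± 220.2 and 731 ± 289 TPM, and in neutrophils Ier2 and Egr1 averaged 116 ± 76.8 and 118 ± 66.4 TPM (SD, n = 5 each), so these neighbours did not differ beyond their spread. Neutrophil Zfp36 (310.4 to 659 TPM) lay below neutrophil Junb (890.0 to 1994 TPM) without overlap. The 10 genes together made up 0.206 to 0.699% of all TPM in monocytes and 0.313 to 0.536% in neutrophils. Without monocyte TN2 tag_706, at 0.699%, the monocyte range was 0.206 to 0.308%, below every neutrophil library.

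**Figure D1:**
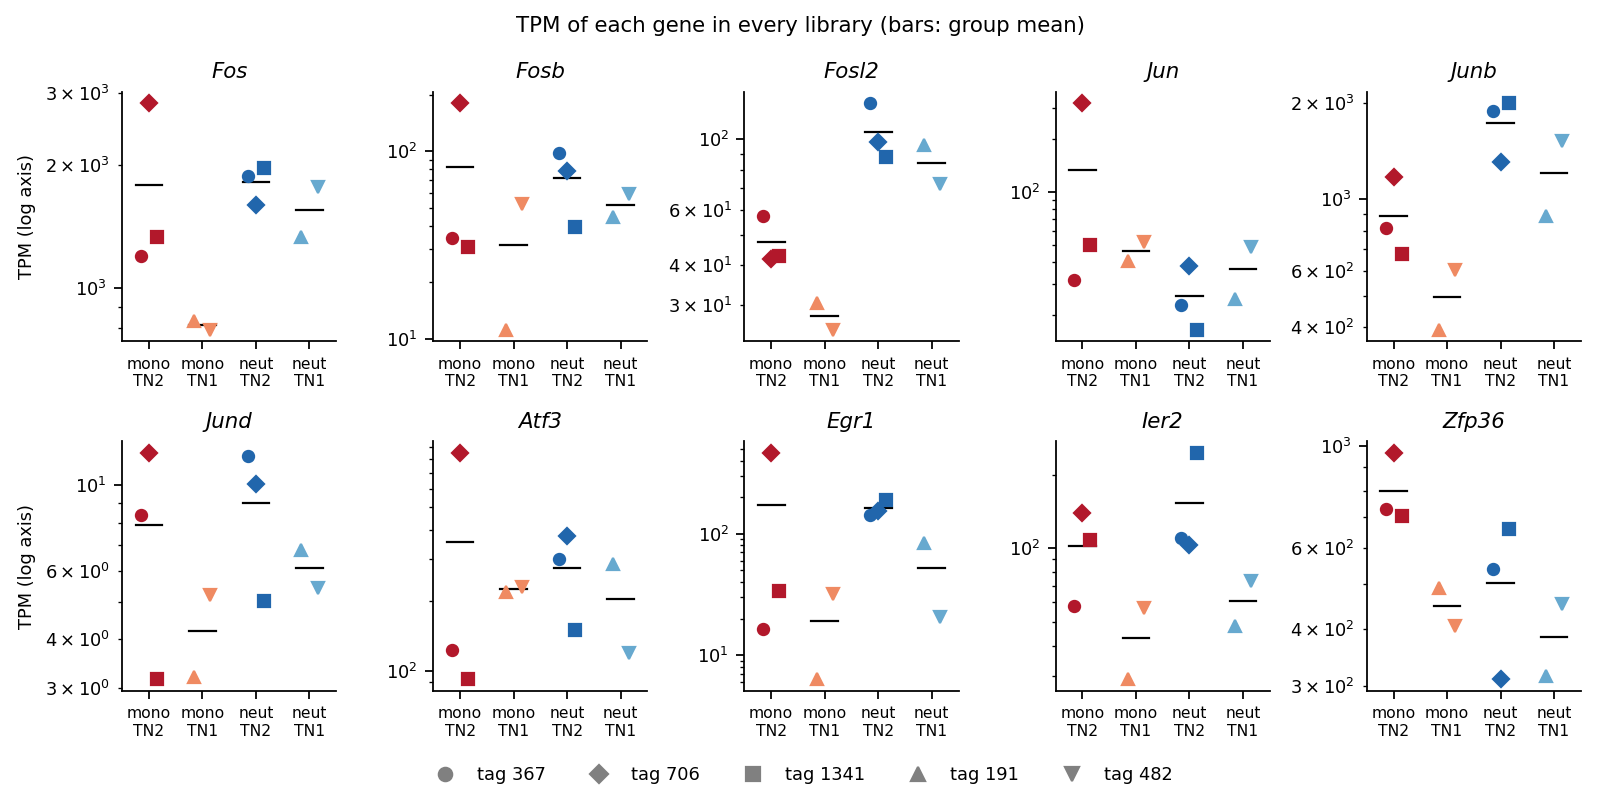
TPM of each of the 10 genes (log axis) in every library, by cell type and tumour, with TN2 left of TN1 and monocytes left of neutrophils; symbols give the tag and bars the group mean. Fosl2 is lower in all 5 monocyte libraries (25.1 to 57.4 TPM) than in all 5 neutrophil libraries (72.2 to 130.1 TPM), and monocyte TN2 tag_706 is the highest of 10 libraries for Fos, Fosb, Jun, Jund, Atf3, Egr1 and Zfp36.

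Between the cell types, 4 of the 10 genes were lower in monocytes than in neutrophils and none was higher: Fosl2, Junb, Fos and Ier2. The background in the same edgeR quasi-likelihood fit (Benjamini-Hochberg adjusted p under 0.05) was 12.4% of 13384 genes called lower and 15.5% called higher. The log2 difference (monocytes minus neutrophils, on the CPM scale) was negative for 9 of the 10 genes. Its median over them was -1.18, beside a median of 0.46 over all genes tested. Each sorted population is a bulk sample, in which fewer cells of a type and less RNA per cell cannot be told apart.

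Within the FOS family, Fosl2, which encodes FRA-2, a partner of JUN proteins without the strong activation domain of FOS, showed the largest difference. Fosl2 (ENSMUSG00000029135, chr5:32135801-32157842, plus strand, GRCm38) was at 57.4, 41.8 and 43.0 TPM in TN2 monocytes (tag_367, tag_706 and tag_1341) and 30.4 and 25.1 TPM in TN1 monocytes (tag_191 and tag_482), against 130.1, 98.0 and 87.8 TPM in TN2 neutrophils and 95.9 and 72.2 TPM in TN1 neutrophils. No monocyte library reached the lowest neutrophil library, and tag_706 lay among the other monocyte libraries. In CPM it averaged 149.9 ± 37.7 in monocytes and 648 ± 109 in neutrophils (SD, n = 5 each). It fell by 2.12 ± 0.21 on the log2 scale (SE, edgeR adjusted p = 0.000131) and passed under all 21 alternatives, the highest adjusted p being 0.00435.

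Fos (ENSMUSG00000021250, chr12:85473890-85477273, plus strand), the founding FOS subunit, was at 1199, 2839 and 1336 TPM in TN2 monocytes and 835 and 792 TPM in TN1 monocytes, against 1880.0, 1596 and 1974 TPM in TN2 neutrophils and 1334 and 1772 TPM in TN1 neutrophils. Library tag_706 was the highest of the 10 libraries, while of the other 4 monocyte libraries only TN2 tag_1341 reached the lowest neutrophil library, TN1 tag_191. In CPM Fos averaged 1708 ± 773 in monocytes and 3859 ± 831 in neutrophils (SD, n = 5 each), and fell by 1.26 ± 0.27 on the log2 scale (SE, edgeR adjusted p = 0.00695). On log2(TPM + 1) the difference was -0.52 and did not pass (limma-trend adjusted p = 0.117), and without both libraries of tag_482 it was -1.26 in CPM, with an edgeR adjusted p of 0.0637. The transcript Fos-201 carried 97.7 to 99.2% of the gene's TPM in every library.

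Fosb, which encodes another FOS subunit, is on chr7:19302696-19310051, minus strand (ENSMUSG00000003545). It was at 34.4, 180.1 and 30.9 TPM in TN2 monocytes and 11.2 and 52.3 TPM in TN1 monocytes, against 97.4, 78.3 and 39.4 TPM in TN2 neutrophils and 44.7 and 59.0 TPM in TN1 neutrophils. The groups overlapped, with tag_706 above every neutrophil library. The log2 difference was -0.99 ± 0.58 (SE) and did not pass (edgeR adjusted p = 0.221). It passed without monocyte TN2 tag_706 (-1.60, edgeR adjusted p = 0.0317) and without monocyte TN1 tag_482 (-1.93, edgeR adjusted p = 0.0402), and did not pass without both libraries of tag_706 (-1.54, edgeR adjusted p = 0.0644).

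Of the JUN family, Junb, which in many settings counteracts JUN, was the dominant member. Junb (ENSMUSG00000052837, chr8:84974484-84978718, minus strand) was at 815, 1171 and 675 TPM in TN2 monocytes and 393 and 603 TPM in TN1 monocytes, against 1882, 1306 and 1994 TPM in TN2 neutrophils and 890.0 and 1522 TPM in TN1 neutrophils. On TPM only tag_706 of the monocytes was above the lowest neutrophil library, and on CPM the groups did not overlap. In CPM Junb averaged 795 ± 229 in monocytes and 2982 ± 1034 in neutrophils (SD, n = 5 each). It fell by 1.88 ± 0.29 on the log2 scale (SE, edgeR adjusted p = 0.00120) and passed under all 21 alternatives, the highest adjusted p being 0.00947.

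Jun, the classical AP-1 activator, was the one member with a positive log2 difference. Jun (ENSMUSG00000052684, chr4:95049034-95052222, minus strand) was at 31.4, 321 and 50.2 TPM in TN2 monocytes and 40.5 and 52.0 TPM in TN1 monocytes, against 22.8, 37.9 and 16.5 TPM in TN2 neutrophils and 24.5 and 48.8 TPM in TN1 neutrophils. Library tag_706 lay far above the other 9 libraries, whose groups overlapped. The log2 difference was 0.56 ± 0.58 (SE, edgeR adjusted p = 0.495) and became -0.24 without tag_706 of the TN2 monocytes, so no direction is given. The authors' deposited table has higher Jun means than Jun-201 gives, and a transcript of 1848 bases with no gene in the annotation accounts for them when added, where the next best of 3437 unmatched transcripts leaves a difference of 0.124 (log2). Its share of the sum was 12.97 to 31.5% over the libraries, and the values of Jun here leave it out.

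Jund, a JUN subunit that is usually expressed without stimulation, is on chr8:70698949-70700616, plus strand (ENSMUSG00000071076). It was at 3.16 to 12.1 TPM in monocytes and 5.01 to 11.9 TPM in neutrophils, from only 58 to 269 counts a library. The ranges overlapped and the log2 difference of -1.10 ± 0.47 (SE) did not pass (edgeR adjusted p = 0.111). With DESeq2, which called 16.4% of all genes lower, it was -1.09 and passed (DESeq2 adjusted p = 0.0445).

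The make-up of the families is described here without a test. Jun made up 3.68, 21.3 and 6.89% of JUN family TPM in TN2 monocytes and 9.27 and 7.88% in TN1 monocytes, against 1.19, 2.80 and 0.818% in TN2 neutrophils and 2.66 and 3.09% in TN1 neutrophils. The 2 sets of shares did not overlap, with or without tag_706 of the monocytes, and also not with the additional transcript counted (5.03 to 26.9% in monocytes, 1.13 to 4.17% in neutrophils). Junb made up the bulk of the family, at 77.9 to 95.3% in monocytes and 96.5 to 98.9% in neutrophils. Among the FOS genes Fos held 91.1 to 95.3% in monocytes and 89.2 to 93.9% in neutrophils, and Fosl2 1.37 to 4.44% in monocytes and 3.80 to 6.502% in neutrophils, with overlap. Summed FOS family TPM over summed JUN family TPM was 1.32 to 2.04 in monocytes and 1.04 to 1.60 in neutrophils, also with overlap. These shares are of mRNA, and a share falls where another member of its family is higher.

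**Figure D2:**
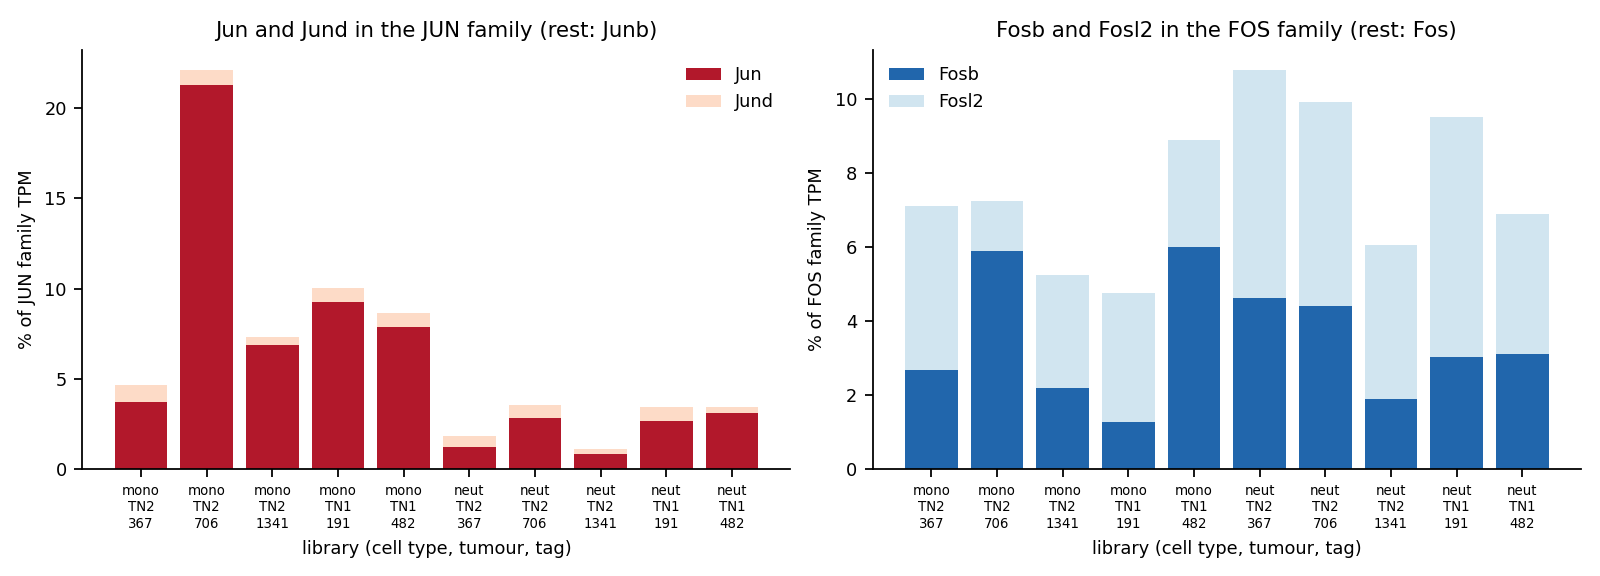
Left, share of JUN family TPM held by Jun and Jund in each library, the rest being Junb; right, share of FOS family TPM held by Fosb and Fosl2, the rest being Fos. Jun holds 3.68 to 21.3% in the monocyte libraries, left, and 0.818 to 3.09% in the neutrophil libraries, right, of the JUN panel.

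Atf3, a stress-induced partner of JUN proteins that often represses its targets, is on chr1:191170296-191218039, minus strand (ENSMUSG00000026628). It was at 123, 853 and 92.3 TPM in TN2 monocytes and 217 and 229 TPM in TN1 monocytes, against 301, 376 and 149 TPM in TN2 neutrophils and 287 and 120.1 TPM in TN1 neutrophils. The groups overlapped, and tag_706 was the highest of the 10 libraries. The log2 difference was -0.53 ± 0.58 (SE, edgeR adjusted p = 0.516), and -1.32 without monocyte TN2 tag_706 (edgeR adjusted p = 0.0185).

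Egr1, a zinc finger activator of the early growth response family, is on chr18:34859823-34864984, plus strand (ENSMUSG00000038418). It was at 16.3, 465 and 33.7 TPM in TN2 monocytes and 6.31 and 31.7 TPM in TN1 monocytes, against 143, 153 and 189.5 TPM in TN2 neutrophils and 83.8 and 20.5 TPM in TN1 neutrophils. Library tag_706 was above every neutrophil library, and the other 4 monocyte libraries, at 33.7 TPM or less, overlapped the neutrophils only at TN1 tag_482. The log2 difference was -1.47 ± 0.88 (SE) and did not pass (edgeR adjusted p = 0.232). Without monocyte TN2 tag_706 it was -2.78 with an edgeR adjusted p of 0.00792.

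Ier2, an immediate early gene for a small nuclear protein, is on chr8:84661331-84662852, minus strand (ENSMUSG00000053560). It was at 57.8, 139.9 and 109 TPM in TN2 monocytes and 29.1 and 56.9 TPM in TN1 monocytes, against 109.9, 103 and 246 TPM in TN2 neutrophils and 47.9 and 73.6 TPM in TN1 neutrophils. The ranges overlapped widely, and TN2 tag_1341 was the highest neutrophil library. In CPM it averaged 67.4 ± 30.9 in monocytes and 190.7 ± 149.97 in neutrophils (SD, n = 5 each), and fell by 1.33 ± 0.41 on the log2 scale (SE, edgeR adjusted p = 0.0379). The call was lost in 7 of the 21 alternatives, and the difference was negative in each of these 7. They were limma-trend on log2(TPM + 1) (-0.54, adjusted p = 0.244) and on log2(TPM + 0.1) (-0.55, adjusted p = 0.253), leaving out both libraries of tag_482 (-1.58, edgeR adjusted p = 0.0730), and leaving out 1 library in 4 fits. Without neutrophil TN1 tag_482 the log2 difference was -1.15 (edgeR adjusted p = 0.115), and without monocyte TN1 tag_191 it was -1.13 (edgeR adjusted p = 0.102). Without neutrophil TN2 tag_1341 it was -0.98 (edgeR adjusted p = 0.0684), and without monocyte TN2 tag_367 it was -1.27 (edgeR adjusted p = 0.0604).

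Zfp36, on chr7:28376784-28380253, minus strand (ENSMUSG00000044786), was at 729, 968 and 703 TPM in TN2 monocytes and 492 and 406 TPM in TN1 monocytes, against 541, 310.4 and 659 TPM in TN2 neutrophils and 316 and 452 TPM in TN1 neutrophils. The ranges overlapped. The log2 difference was -0.33 ± 0.26 (SE) on the CPM scale (edgeR adjusted p = 0.360) and 0.48 on log2(TPM + 1), so no direction is given.

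Monocyte TN2 tag_706 changed how many members were called. Without it 7 genes were lower in monocytes (Fos, Fosb, Fosl2, Junb, Atf3, Egr1 and Ier2), where 12.99% of the 12669 genes tested were called lower. With it, 2 of the 10 (Fosl2 and Junb) had all monocyte libraries below all neutrophil libraries in CPM, against 12.6% of all genes. Without it there were 5 (Fos, Fosb, Fosl2, Junb and Jund), against 14.3% of all genes. On TPM, Fosl2 alone among the 10 did not overlap, against 6.17% of all genes. The median log2 difference of all genes was 0.46 on CPM and 0.62 on log2(TPM + 1), where 2 members passed (Fosl2 and Junb) and 8.95% of all genes were called lower. With a pseudocount of 0.1 the same 2 passed, against 8.60%, and without both libraries of tag_482 there were also 2, against 9.001%.

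**Figure D3:**
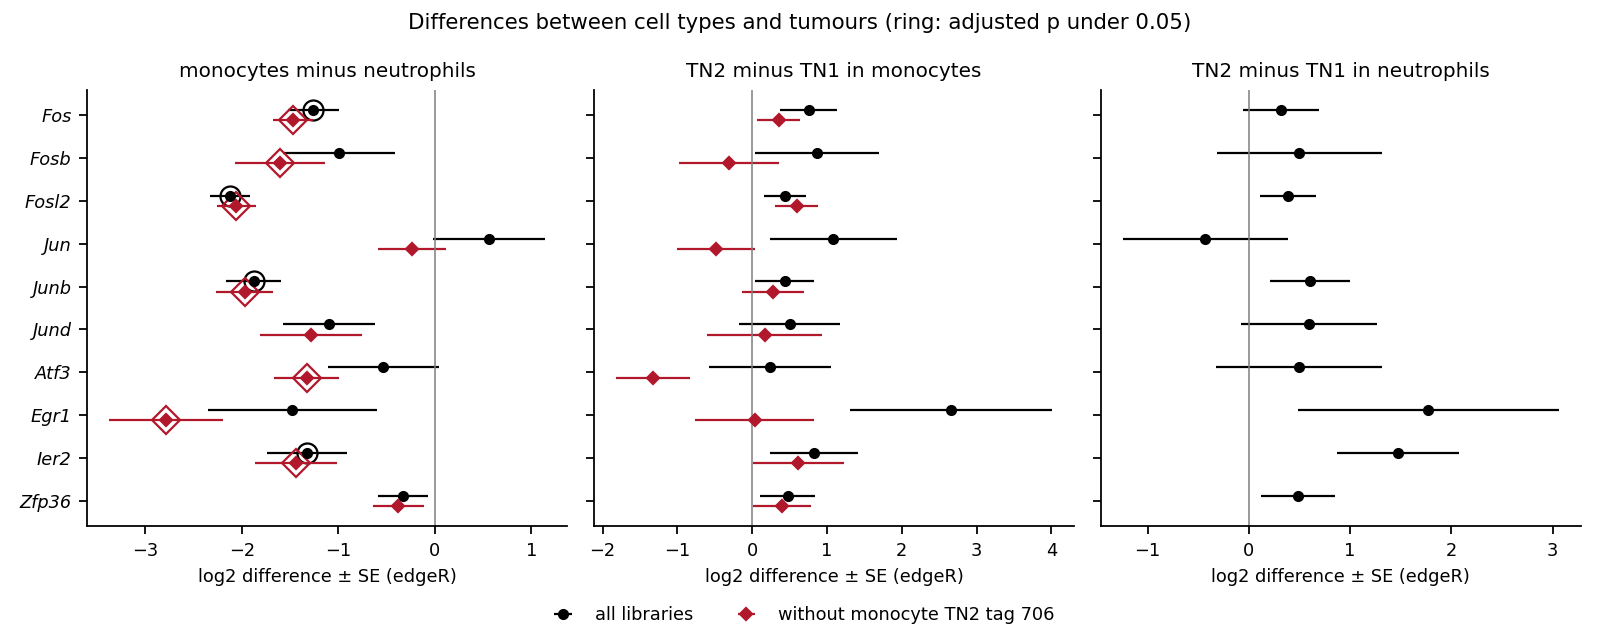
Log2 difference with SE of each gene in the edgeR fit, for monocytes minus neutrophils, TN2 minus TN1 in monocytes and TN2 minus TN1 in neutrophils; black, all libraries; red, without monocyte TN2 tag_706; rings, adjusted p under 0.05. Fosl2, Junb, Fos and Ier2 are ringed in both fits of the first panel, and Fosb, Atf3 and Egr1 in red alone; no gene is ringed in the tumour panels.

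Library tag_706 was above the other 4 monocyte libraries for 9 of the 10 members, all but Fosl2, in TPM and in CPM, against 30.7% of all genes in CPM. Its TPM over the highest of the other 4 was 13.8 for Egr1, 6.16 for Jun, 3.73 for Atf3, 3.44 for Fosb and 2.12 for Fos. For Jund, Junb, Zfp36 and Ier2 the ratio was 1.45, 1.44, 1.33 and 1.29, and for Fosl2 0.728. In CPM 4 members were over 2-fold above the other monocyte libraries, against 13.2% of all genes. Markers of some other lung cells were also high in it. Summed endothelial markers (6 genes) were 2108.5 CPM, against 32.6 to 184 CPM in the other monocyte libraries, and Cldn5, a tight junction gene of endothelium, was at 889 CPM. Summed stromal markers (5 genes) were 1622 CPM, against 0.847 to 79.2 CPM, and the collagen-binding proteoglycan gene Dcn was at 884 CPM. Summed epithelial markers (6 genes) were 285 CPM, against 0.106 to 57.2 CPM, and natural killer cell markers (7 genes) 463 CPM, against 1.63 to 174 CPM. All genes of these 4 lists were found in the tables. Platelet markers (4 genes) were at 34.7 CPM, against 3.37 to 15.6 CPM. Summed macrophage (672 CPM), dendritic cell (504 CPM), lymphocyte (9.44 CPM) and erythroid (36.4 CPM) markers lay within the range of the other monocyte libraries. Hspa1a, a heat shock gene that was chosen after its values were seen and that the rule for named genes does not name, was at 718 TPM in tag_706, against 7.07 to 166 TPM in the other monocyte libraries. Ccr2, the sorting marker, was at 345 CPM in it, against 709 to 1016 CPM. Summed monocyte markers (15 genes) were 30212 CPM in it, within the range of the other monocyte libraries (29126.5 to 70361 CPM). The part of other lung cells in the levels of the 10 genes was not tested.

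**Figure D4:**
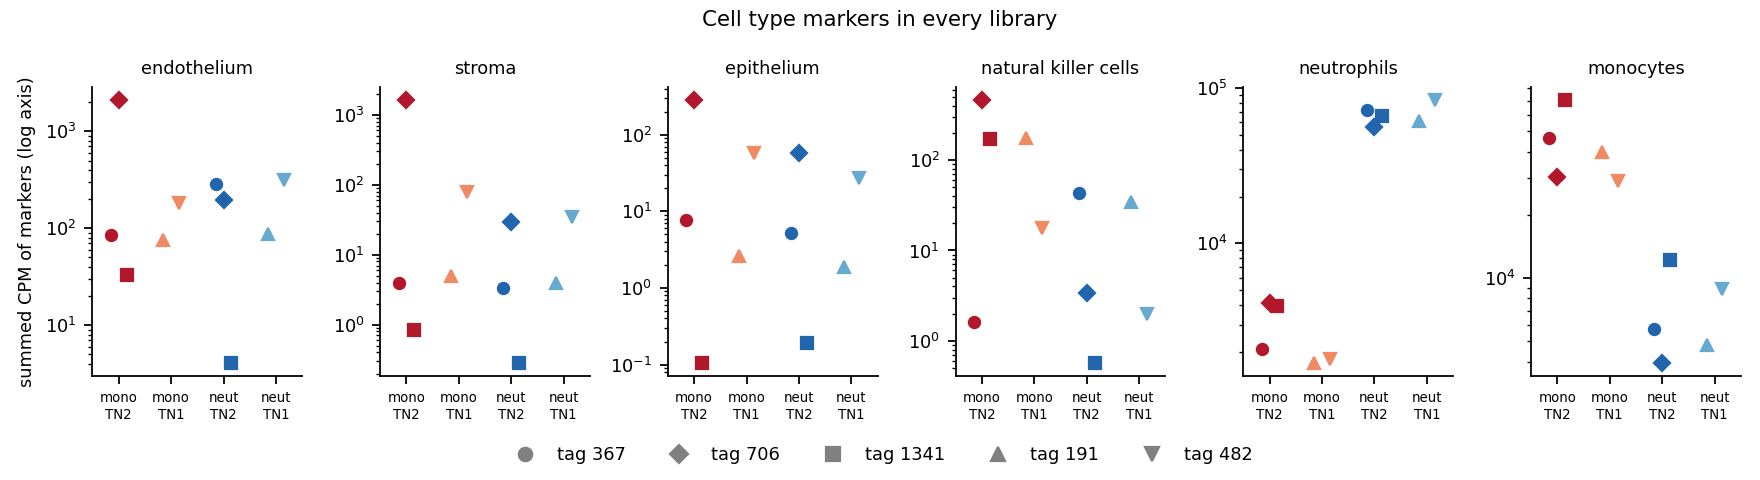
Summed CPM of 6 marker lists in every library (log axis; values under 0.1 are drawn at 0.1), by cell type and tumour, with symbols for the tag. Monocyte TN2 tag_706 has the highest endothelial (2108.5 CPM), stromal (1622 CPM) and epithelial (285 CPM) sums of the 10 libraries. Its neutrophil marker sum (4105 CPM) is the highest of the monocytes (1708 to 3961 CPM in the others) and far below the neutrophil libraries.

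The same libraries allow the tumours to be compared within each cell type. In monocytes, no gene of 13384 was called between TN2 and TN1 (0% called by edgeR, with 379 genes at an unadjusted p under 0.05 and 22 called by DESeq2). The log2 difference (TN2 minus TN1) was positive for 10 of the 10 members and for 59.8% of all genes, with medians of 0.63 and 0.22. It was 2.66 ± 1.35 for Egr1, 1.08 ± 0.85 for Jun and 0.76 ± 0.38 for Fos (SE, edgeR adjusted p = 1 for each). Fos in CPM was 1475, 3054 and 1596 in TN2 monocytes and 1145 and 1271 in TN1 monocytes. Fos, Fosl2 and Zfp36 had every TN2 library above every TN1 library in CPM, 3 of 10 against 12.4% of all genes. On TPM these were Fos, Fosl2, Junb, Ier2 and Zfp36, against 21.7% of all genes. Without tag_706 the difference was positive for 7 members, and Egr1 was 0.03, Fosb -0.31, Jun -0.49 and Atf3 -1.33. Fos, Fosl2 and Zfp36 still did not overlap in CPM, against 18.6% of all genes, and Atf3 was lower in TN2 without overlap, against 13.03%.

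In neutrophils, no gene of 13384 was called (0% called by edgeR, with 625 genes at an unadjusted p under 0.05 and 87 called by DESeq2). The log2 difference was positive for 9 of the 10 members, all but Jun, and for 59.7% of all genes, with medians of 0.50 and 0.22. Ier2 was at 148, 171 and 450 CPM in TN2 neutrophils and 71.9 and 112 CPM in TN1 neutrophils, and its log2 difference was 1.48 ± 0.60 (SE, edgeR adjusted p = 0.943). Every TN2 library was above both TN1 libraries. Egr1 was at 443, 575 and 796 CPM in TN2 neutrophils and 284 and 69.8 CPM in TN1 neutrophils, also without overlap, with a log2 difference of 1.77 ± 1.29 (SE, edgeR adjusted p = 0.943). Fosl2 was the third member without overlap in CPM, so 3 of 10 did not overlap against 11.8% of all genes, and on TPM Egr1 and Ier2 did not, against 10.2%. The authors' deposited table gives log2 folds of TN2 over TN1 of 1.92 for Egr1 and 1.23 for Ier2 in neutrophils, with adjusted p of 1 for both, and its monocyte counterpart gives 0.82 for Zfp36 and 0.74 for Fosl2, also with adjusted p of 1.

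The tumour difference was not shown to differ between the cell types for any member. The interaction term (TN2 minus TN1 in monocytes, less the same in neutrophils) was called for no gene (0% called by edgeR, with 472 genes at an unadjusted p under 0.05 and 21 called by DESeq2). The smallest unadjusted p among the 10 members was 0.224. It was positive for 5 of the 10, with a median of 0.02 beside -0.03 over all genes.

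Genes that act with the 10 members were counted in the same monocyte and neutrophil fit, against the same backgrounds of 15.5% called higher and 12.4% lower. Of the other AP-1 and basic leucine zipper partners (19 tested), 3 rose and 5 fell in monocytes relative to neutrophils (median -0.36 on the log2 scale). Fosl1, which encodes FRA-1, averaged 33.8 ± 16.7 CPM in monocytes and 480 ± 146 CPM in neutrophils (SD, n = 5 each) and fell by 3.90 ± 0.47 on the log2 scale (SE, edgeR adjusted p = 0.000353). Jdp2, a repressor that pairs with JUN proteins, fell by 2.01. Batf3, which pairs with JUN proteins in dendritic cell development, rose by 5.98 from low counts (8.65 ± 8.41 CPM in monocytes and 0.767 ± 1.06 CPM in neutrophils, SD, n = 5 each). It was at 54.1 TPM in monocyte TN1 tag_482, against 10.9 to 20.8 TPM in the other monocyte libraries. Summed dendritic cell markers (8 genes) were 1616 CPM in that library, against 255 to 504 CPM. The part of dendritic cells was not tested. Of 4 tested genes of the EGR family and its corepressors none passed, and the pair with the smallest p was Nab1 (-0.99 ± 0.50, edgeR adjusted p = 0.160) and Nab2 (0.53 ± 0.93, edgeR adjusted p = 0.701). None of 6 tested genes for SRF and its partners passed either, with Elk1 at 1.70 ± 0.72 and Elk4 at -0.78 ± 0.41 (SE, edgeR adjusted p = 0.103 and 0.175).

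Upstream, 3 of 20 MAP kinase cascade genes were higher and 3 lower, with a median of 0.37. Map3k1, a kinase above JNK, rose by 1.65 and Mapkapk3, a kinase below p38, rose by 1.32, while Map2k3, which activates p38, fell by 1.97 and Map3k5 (ASK1) fell by 2.47. Among 27 tested other immediate early genes 14 were lower and 2 higher, with a median of -1.01. Without monocyte TN2 tag_706, 16 were lower and 2 higher, where 12.99% of all genes were called lower and 14.00% higher. Nfkbiz, an atypical inhibitor of NF-kappaB, averaged 391 ± 118 CPM in monocytes and 5434 ± 1832 CPM in neutrophils (SD, n = 5 each) and fell by 3.86 ± 0.29 on the log2 scale (SE, edgeR adjusted p = 5.42e-05). Btg2, an antiproliferative gene, fell by 3.41, Trib1, a pseudokinase gene, by 2.68 and Dusp1, whose product dephosphorylates MAP kinases, by 2.52. The 2 higher genes, Myc (5.58) and Nr4a2 (2.58), lie outside the naming rule and were chosen after their values were seen.

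Of 9 heat shock genes 3 were higher (Hspe1, Hspa8 and Hsph1, by 3.23, 1.25 and 3.89) and 1 was lower (Dnaja1, by -2.21), with a median of 1.55. Without tag_706 of the TN2 monocytes, against the same shares of all genes, 2 were higher and 2 lower, and Hsph1 was no longer called (3.49, edgeR adjusted p = 0.0593). Zfp36l1 and Zfp36l2, relatives of Zfp36 that also bind AU-rich elements, had log2 differences of 1.03 ± 0.35 and 0.51 ± 0.30 (SE, edgeR adjusted p = 0.0506 and 0.222). Of 11 tested mRNAs known as ZFP36 targets 4 were lower and 3 higher, with a median of -0.60. The lower ones included Il1b, an inflammatory cytokine (-3.16), Cxcl2, a neutrophil chemokine (-2.63), and Ptgs2, which makes prostaglandins (-2.71), and the higher ones included Ccl2, the ligand of CCR2 (3.99). Of 12 genes known as AP-1 or EGR1 targets 5 were lower and 2 higher, with a median of -0.67, and without monocyte TN2 tag_706 6 were lower and 1 higher, against the same shares of all genes. Mmp9 (-9.20) and Mmp8 (-3.54), neutrophil granule proteases that are also in the neutrophil marker list, and Cd44, a hyaluronan receptor (-1.95), fell, and Vim, an intermediate filament gene, rose by 2.03. Mmp9 was at 40.4 TPM in monocyte TN2 tag_706 and at 0.161 to 2.19 TPM in the other 4 monocyte libraries, against 528 to 859.8 TPM in neutrophils, and its log2 difference without that library was -11.06 (edgeR adjusted p = 7.35e-06). No gene of these lists was called between the tumours in either cell type.

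**Figure D5:**
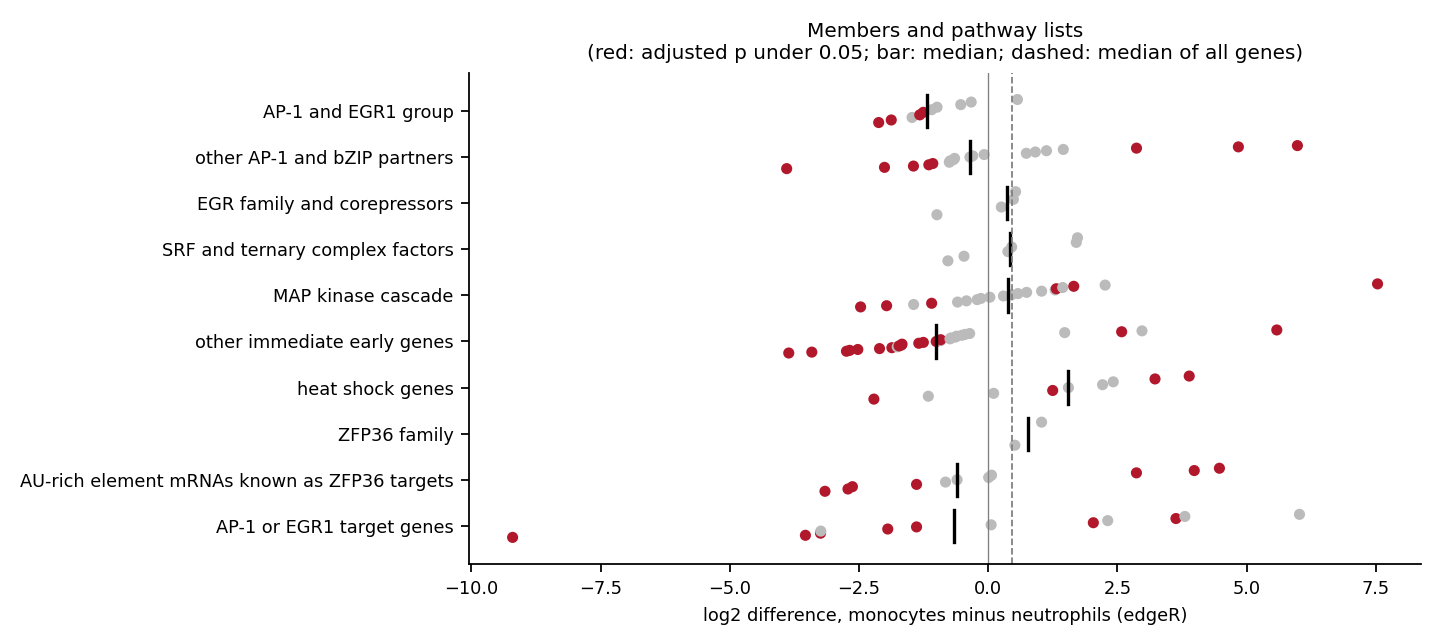
Log2 difference (monocytes minus neutrophils) of the 10 members, in the top row, and of each tested gene in 9 lists, with red for an adjusted p under 0.05, bars for the median of each list and a dashed line for the median of all genes (0.46). The other immediate early genes lie mostly left of 0, with a median of -1.01.

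The members did not all vary together among libraries of a cell type. With log2(CPM + 1) centred on the cell type mean, Pearson's r of each member with the mean of the other 9, over the 10 libraries, was 0.893 for Egr1, 0.842 for Fosb and 0.839 for Fos, and 0.0511 for Fosl2 and 0.401 for Zfp36. For Junb, Jund, Ier2, Jun and Atf3 it was 0.686, 0.642, 0.611, 0.579 and 0.558. Without monocyte TN2 tag_706 it was 0.767 for Egr1, 0.678 for Junb, 0.672 for Fosb, 0.622 for Ier2, 0.598 for Fos and 0.466 for Jund. It was then 0.283 for Fosl2, 0.265 for Zfp36, 0.130 for Atf3 and -0.00 for Jun. Among 2650 other genes with a mean of at least 50 CPM, those most like the mean of the members were Tuba1a (r = 0.935, and 0.883 without tag_706), Stfa2l1 (0.920 and 0.779), G0s2 (0.908 and 0.755), Rassf1 (0.908 and 0.796) and Thbd (0.906 and 0.738). All of them were highest in tag_706 among the monocyte libraries. Stfa2l1 was at 131 TPM there, against 0.562 to 3.71 TPM in the other monocytes and 1232 to 3691 TPM in neutrophils. G0s2 was at 675 TPM there, against 9.31 to 62.8 TPM in the other monocytes and 5850 to 10417 TPM in neutrophils. The r values of this paragraph share libraries and depth and are given as a description.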

How the data were processed

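RNA-seq of 10 libraries (4 groups) was used. Reads had been pseudoaligned by the authors to GRCm38 transcripts with kallisto 0.42.3, per the series' design text. Per the file headers, the deposited tables give an estimated count and TPM per transcript. The deposited comparison tables give the authors' log2 means, log2 folds, a signed fold (a score, not used here) and p-values, whose test is not given in the sources used here. Of 85276 transcripts, 81839 (96.0%) matched GENCODE M21. Unmatched transcripts held 1.94 to 3.59% of counts. Gene sums of expected counts were rounded and fitted with edgeR 4.0.16 (R 4.3.3; TMM, filterByExpr with a total of at least 10, quasi-likelihood test, Benjamini-Hochberg over 13384 genes, threshold 0.05), with 6 residual degrees of freedom and a common coefficient of variation of 0.887. SE was the absolute log2 difference over the square root of F. The fit code was run on simulated counts with less spread than these data and larger changes than those of the 10 members. That run checks the code and cannot give power or error rates for these data.

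Alternatives were size factors of DESeq2 1.42.0 in edgeR, DESeq2, no filter, limma 3.58.1 on log2(TPM + 1) and log2(TPM + 0.1), limma-voom, mitochondrial genes left out, compared groups alone, a block by tag, libraries left out, and Jun with the additional transcript. Leaving out both libraries of tag_706 and the Jun alternative were chosen after seeing the data. Smart-seq2 reads have no molecular identifiers, so counts include PCR copies. No pair of libraries in a group agreed within sampling noise (chi-square per degree of freedom 54.0 to 157).

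The members, the gene lists and the marker lists were chosen with earlier results of these data known. All 10 members are named. From each list the text names up to 4 genes with the smallest p in monocytes minus neutrophils among those that passed, or the 2 with the smallest p where fewer than 2 passed. One gene that this rule names is not reported here. Likeness was ranked over genes with a mean of at least 50 CPM. Promoter sequence is RefSeq's (GRCm38.p6), and gene coordinates are GENCODE's.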

Additional observations from a re-analysis of the deposited data

Results flagged for a closer look

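In 4 of 20 checks (10 genes in 2 cell types of 5 libraries each) a library lay so far from the rest that its gap to the nearest library, over the whole range, passed Dixon's critical value for 5 libraries. For independent values from 1 normal distribution, chance does this in about 1 in 20 groups. That rate may not hold here, since each cell type mixes 2 tumours, CPM need not be normal and the 10 genes share libraries. The Fos, Jun and Egr1 values were in monocyte TN2 tag_706. There, Fos was at 3054 CPM, against 1145 to 1596 CPM in the other monocyte libraries (gap over range 0.764). Jun was at 545 CPM, against 61.5 to 133 CPM (0.852), and Egr1 was at 792 CPM, against 13.9 to 79.9 CPM (0.915). The markers of other lung cells in this library are given above, and their part was not tested. In neutrophil TN2 tag_1341 Ier2 was at 450 CPM, against 71.9 to 171 CPM in the other neutrophil libraries (0.739). The monocyte marker sum of that library was 12142 CPM, the highest of the neutrophils, while Ier2 itself was at 27.8 to 104.5 CPM in the monocyte libraries. The part of monocytes in this value was not tested.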

How the results depend on the processing

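Over 21 alternatives, 188 member values of monocytes minus neutrophils kept their direction and their side of the threshold, 10 lost and 8 gained a call, and 4 changed sign. The cause of each change below was not tested. Every member called was lower in monocytes, and with single TN2 libraries left out 10.7 to 12.99% of all genes were called lower. The 4 members called became 2 under limma-trend with either pseudocount (1 and 0.1), and ranged from 3 to 7 with single TN2 libraries left out. The 3733 genes called (2070 higher, 1663 lower) became 5730 (4532 higher, 1198 lower) under limma-trend on log2(TPM + 1), and ranged from 2682 to 3861 with single libraries left out. Jun turned to -0.24 without monocyte TN2 tag_706 and to -0.022 without both of tag_706 (-0.24 to 0.86 with single libraries left out), and Zfp36 to 0.48 under limma-trend with either pseudocount.

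For TN2 minus TN1 in neutrophils the 0 calls became 87 with DESeq2, 2 with no filter, 1 and 3 under limma-trend, and 0 to 506 with single libraries left out (506 without neutrophil TN1 tag_191). In monocytes they became 22 with DESeq2 and 0 to 128 (128 without monocyte TN1 tag_191). For the interaction they became 21 with DESeq2, 1 with no filter and 0 to 372 (372 without neutrophil TN1 tag_191, 71 without monocyte TN1 tag_191). A group then holds 1 library, assumed to vary like the others. No member was called under any of these.

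In neutrophils Jun turned to 0.17 without TN1 tag_482 and 0.14 without both of tag_482, and Atf3 to -0.021 without both. With single libraries left out Jun ranged from -0.87 to 0.17. In monocytes Fosb turned to -0.06 without TN1 tag_191, -0.31 without TN2 tag_706 and -0.31 without both of tag_706, Jun to -0.49 and -0.49 under these last, and Atf3 to -1.33 and -1.33 under them, to -0.11 without TN1 tag_191, to -0.061 and -0.064 under limma-trend and to -0.39 under limma-voom. With single libraries left out Fosb ranged from -0.31 to 2.37, Jun from -0.49 to 1.31 and Atf3 from -1.33 to 0.45. The median TN2 minus TN1 difference of all genes in monocytes was 0.22, and 0.39 on log2(TPM + 1).

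Deviations from the group mean in same-tag libraries of the 2 cell types had r of 0.0890 (tag_191 and tag_482), -0.0569 (tag_367), 0.380 (tag_706) and 0.342 (tag_1341). The 2 TN1 tags share 1 value by construction, since each TN1 group holds 2 libraries. As tag_367 did not correlate best with its own number, the tags are not shown to pair samples. With a replicate block by tag, 5 members were called lower (Fosb joined, -1.41, edgeR adjusted p = 0.0416), against 11.5% of 13384 genes. In all 3335 genes were called in that fit, and 0 for the interaction. Within 1 cell type no block could be fitted.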
